A study of Homo sapiens with 18 samples.

Results

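Of the 9533 glucocorticoid receptor (GR) binding regions (GBR) called in Hic-5 depleted cells (siHic5/siNS), 520 were also called in control cells (siNS/siNS) and when BRM and Hic-5 were depleted together (siBRM/siHic5), but not when CHD9 was depleted together with Hic-5 (siCHD9/siHic5). They are referred to here as CHD9-lost shared GBR, shared because they were called with and without Hic-5. The members were selected on the peak calls of these 4 lists by an overlap of at least 1 bp, and they made up 21.0% of the 2474 shared GBR. "Lost" means that no overlapping peak was listed; how much GR signal was left under the calling threshold was not measured.

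The cells were U2OS-GRα, a human osteosarcoma line that stably expresses GRα, so the receptor came from a transgene. GR ChIP-seq was performed after 48 h of transfection with one of 6 siRNA combinations and 1 h of treatment with 100 nM dexamethasone (dex), which all cells received. The combinations were the non-specific control (siNS/siNS), Hic-5 depletion (siHic5/siNS), CHD9 depletion (siCHD9/siNS), BRM depletion (siBRM/siNS) and the double depletions siCHD9/siHic5 and siBRM/siHic5. There were 2 biological replicates for each, 12 ChIP libraries and 6 inputs, and the authors called peaks on the pooled replicates, so that each combination is 1 list without a replicate spread. The lists themselves give no read depth, and the raw read totals given by the study were not used here.

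GR is a ligand-activated transcription factor that binds as a dimer to the glucocorticoid response element (GRE), an inverted repeat of short sites 3 bases apart. CHD9 belongs to the chromodomain helicase family and BRM is an ATPase of the SWI/SNF complexes; both enzymes use ATP to move or remodel nucleosomes. Hic-5 is a focal adhesion protein that also acts in the nucleus as a GR coregulator. AP-1, a dimer of FOS and JUN family proteins, occupies many open regulatory regions and its sites are often found near GBR.

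The sequences of 6 CHD9-lost shared GBR are shown first, since the GRE at the summit is what they have in common with the other shared GBR. The first 4 belong to the 10 members with the highest −log10 p in siHic5/siNS, and the last pair are the 2 with a GRE among the 7 members within 100 kb of a glucocorticoid-induced gene (FKBP5 and CEBPB). Each is the plus strand of GRCh38 around the peak summit, named by the nearest protein-coding transcription start site (TSS), with the GRE match nearest the summit in capitals.
ST3GAL5, chr2:85924587-85924702: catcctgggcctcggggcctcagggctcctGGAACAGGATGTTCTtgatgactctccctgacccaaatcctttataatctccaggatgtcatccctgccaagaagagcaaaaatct
CHST3, chr10:71990862-71990962: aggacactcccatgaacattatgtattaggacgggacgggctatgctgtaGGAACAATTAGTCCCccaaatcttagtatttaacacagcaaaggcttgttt
SLC25A18, chr22:17570965-17571066: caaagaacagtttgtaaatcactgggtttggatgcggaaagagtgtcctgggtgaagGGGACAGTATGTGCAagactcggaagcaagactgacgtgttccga
MCF2L, chr13:112959414-112959517: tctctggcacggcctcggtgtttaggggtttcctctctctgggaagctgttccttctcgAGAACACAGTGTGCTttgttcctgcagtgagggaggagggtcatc
CLPSL2, chr6:35778591-35778691: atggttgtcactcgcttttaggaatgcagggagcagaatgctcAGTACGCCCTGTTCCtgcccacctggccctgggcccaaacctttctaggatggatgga
CEBPB, chr20:50279091-50279191: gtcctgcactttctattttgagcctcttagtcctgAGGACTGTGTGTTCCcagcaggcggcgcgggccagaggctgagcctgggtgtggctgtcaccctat
Of all 520 members, 304 had a GRE match within 100 bp of the summit, which was a condition of this choice. The match shown lay within 28 bp of the summit in each of these. It had no mismatch to the consensus at ST3GAL5 and MCF2L and 1 mismatch at the others. None of the printed windows contains the AP-1 letters TGACTCA or TGAGTCA on either strand, but the GBR near CEBPB has them 337 bp from its summit, outside the stretch shown.

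For comparison, the next sequences are the 3 strongest shared GBR that were called in both double depletions and held a GRE and an AP-1 match within 100 bp of the summit. They are shown because AP-1 was the motif with the lowest p-value in the comparison of both classes. The capitals mark the GRE and the AP-1 match.
ARMC12, chr6:35728058-35728204: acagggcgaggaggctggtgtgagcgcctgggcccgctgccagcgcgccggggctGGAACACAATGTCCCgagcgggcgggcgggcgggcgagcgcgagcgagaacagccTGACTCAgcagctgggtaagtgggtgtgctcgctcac
NPTX2, chr7:98570079-98570235: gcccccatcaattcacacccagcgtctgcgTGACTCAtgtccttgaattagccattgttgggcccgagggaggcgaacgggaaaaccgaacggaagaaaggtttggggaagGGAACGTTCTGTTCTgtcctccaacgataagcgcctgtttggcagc
SLC30A2, chr1:26036592-26036749: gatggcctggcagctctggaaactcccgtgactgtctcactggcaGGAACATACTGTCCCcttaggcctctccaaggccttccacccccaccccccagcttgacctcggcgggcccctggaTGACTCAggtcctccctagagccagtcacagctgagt
In these 3 GBR the AP-1 letters lay 63, 73 and 74 bp from the summit, and the GRE 12, 12 and 2 bp from it. The AP-1 letters were a condition of their choice, so the contrast with the members shown above is not a result. Letters within 100 bp of the summit were present at 372 of the 1600 GBR of this class and at 55 of the 520 members. The 3 were also stronger, with ranks of 3, 6 and 22 in siHic5/siNS against 301 to 2426 for the members shown.

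The choice of the members fixes their calls in 4 lists, which are therefore a description. Over all siHic5/siNS GBR, 26.0% were called in siNS/siNS, 24.6% in siCHD9/siHic5 and 34.6% in siBRM/siHic5, and over the shared GBR 67.7% were called in siCHD9/siHic5 and 85.7% in siBRM/siHic5. The 2474 shared GBR comprised 1600 called in both double depletions, 520 lost after CHD9 depletion only, 278 lost in both and 76 lost after BRM depletion only. The 2 double depletion lists differed in length and cutoff: siCHD9/siHic5 held 2451 peaks with a lowest −log10 q of 7.74 and siBRM/siHic5 3383 peaks with a lowest −log10 q of 14.2. When both were reduced to their 2451 strongest peaks, 351 shared GBR were lost after CHD9 depletion only and 181 after BRM depletion only, so that the ratio of these classes dropped from 6.84 to 1.94. The study also tested GR signal with DiffBind at GBR that Hic-5 did not block. By that test it reported more of these GBR to depend on BRM than on CHD9, the opposite order. By overlap of peak calls, the study reported more of them to depend on CHD9 than on BRM, the same order as here. The GBR that Hic-5 did not block were defined differently from the shared GBR.

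Among the shared GBR, those lost after CHD9 depletion only were of middle strength. In siHic5/siNS the −log10 p of these members ranged from 12.8 to 137 with a median of 41.1. This lay between the 1600 shared GBR called in both double depletions (median 72.9) and the 278 lost in both (median 25.5). The median over all 9533 GBR was 22.4, below that of the members. The signal value of the members in that list, a measure of enrichment given by the authors, had a median of 10.8. It was 15.4 for the GBR called in both double depletions. In siNS/siNS the −log10 p of the members was 12.6 to 75.9 with a median of 18.0, where the weakest listed peak had 12.6. Their median rank was 1627 of 2582 peaks. In siBRM/siHic5 their −log10 p was 17.9 to 112 with a median of 27.4. For the shared GBR called in both double depletions the medians of these lists were 28.3 and 55.6, so that the members were the weaker class in each of the 3 lists in which they had to be called. The rank order of the members was only partly shared between lists, with a Spearman correlation across the 520 GBR of 0.45 between siHic5/siNS and siBRM/siHic5 and 0.20 between siHic5/siNS and siNS/siNS. These GBR are not independent replicates and come from the same lists, so no p-value is given.

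The share of members among shared GBR depended on strength. When the shared GBR were ordered by −log10 p in siHic5/siNS and divided into 10 groups of 247 or 248, the strongest group held 1 member (0.405%) and the second strongest 3 (1.21%). The share was 23.8% in the fifth group and between 27.0% and 39.7% in the 5 weaker groups. GBR lost in both double depletions made up 47.2% of the weakest group, 27.1% of the ninth and 21.8% of the eighth. Since strength separated the classes, each comparison below was made within 10 strength groups, formed anew over the members and the class compared. An exact conditional test of the common odds ratio (OR) was used, with p-values adjusted by Benjamini-Hochberg over 45 tests. Groups without both classes or without variation in the feature drop out. This left 9 groups in each of these tests against the GBR called in both double depletions. Those tests compare GBR of single pooled lists, not replicated conditions.

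**Figure D1:**
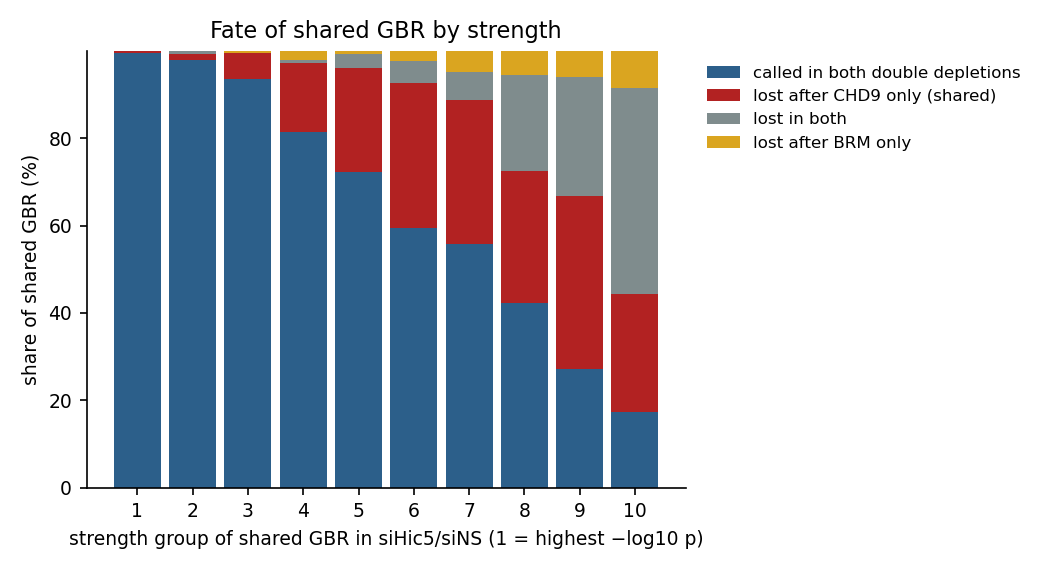
The stacked bars show, for 10 strength groups of shared GBR ordered by −log10 p in siHic5/siNS, the percentage called in both double depletions or lost in one or both. GBR lost after CHD9 depletion only made up 0.405% of the strongest group and 39.7% of the ninth.

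**Figure D2:**
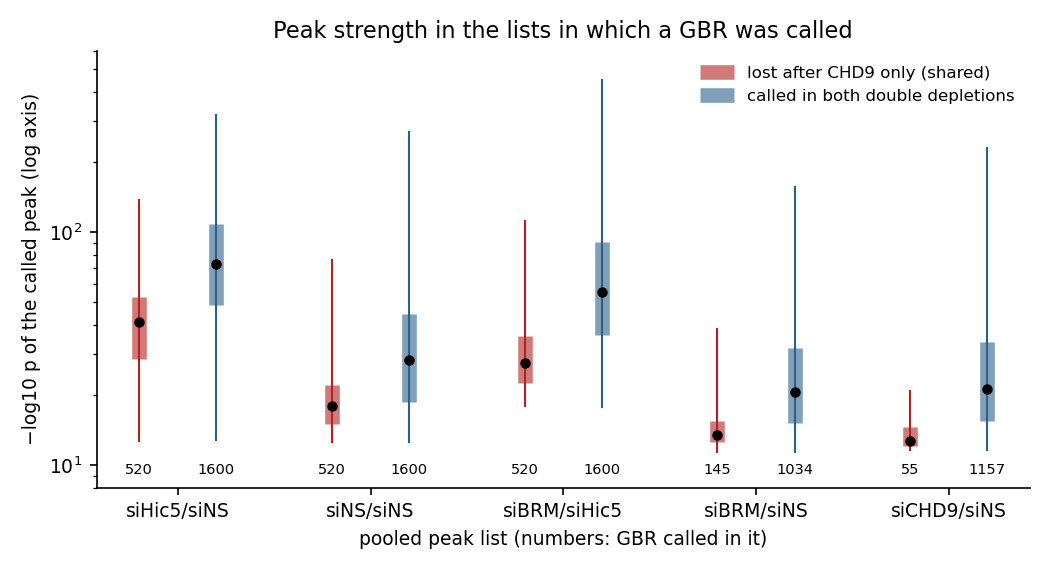
The −log10 p of the called peak (log axis) is plotted for each pooled list, with a thin line from the lowest to the highest value, a thick line between the quartiles and a dot at the median. Red stands for the CHD9-lost shared GBR and blue for shared GBR called in both double depletions, and the numbers under the lines count the GBR called in each list.

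The lists of the single depletions were not used to select the members and ask whether the same GBR were called without CHD9 or without BRM when Hic-5 was present. In siCHD9/siNS, 14.5% of all siHic5/siNS GBR were called. Of the CHD9-lost shared GBR, 55 of 520 were called there (10.6%, 95% Wilson interval 8.22 to 13.5), against 1157 of 1600 (72.3%) of the shared GBR called in both double depletions. Within strength groups the OR was 0.093 (95% interval 0.067 to 0.128, adjusted p = 1.4e-64 by the exact conditional test), and without strength groups it was 0.045. The difference was present across the strength range: in the 8 groups of all shared GBR that held at least 15 members, 5.97% to 20.0% of members were called in siCHD9/siNS and 41.0% to 85.3% of the GBR called in both double depletions. The 55 peaks were weak ones of their list, with a −log10 p of 11.7 to 20.7 and a median of 12.7, where the 1157 peaks of the other class had a median of 21.3.

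In siBRM/siNS, 13.1% of all siHic5/siNS GBR were called. Of the members, 145 were called there (27.9%, interval 24.2 to 31.9), against 1034 (64.6%) of the GBR called in both double depletions. The OR was 0.212 without strength groups and 0.551 within them (interval 0.428 to 0.709, adjusted p = 1.4e-05 by the exact conditional test). The 145 peaks had a median −log10 p of 13.5 and the 1034 peaks of the other class 20.6. Most members were not called after depletion of BRM alone either, and the words "after CHD9 depletion only" hold for the double depletion lists.

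Both single depletion lists were of similar length, 1415 peaks for siCHD9/siNS and 1278 for siBRM/siNS. Of the 520 members, 27 were called in both, 28 in siCHD9/siNS only, 118 in siBRM/siNS only and 347 in neither. The excess of calls in siBRM/siNS over siCHD9/siNS was larger than counting error over the GBR (exact McNemar test, 2-sided p = 2.4e-14). Each condition is 1 pooled list, so a McNemar p does not measure the spread between replicates or test an effect of the depletions. The read depth of these lists was not compared. Among the shared GBR called in both double depletions the order was the opposite, with 275 called in siCHD9/siNS only and 152 in siBRM/siNS only (exact McNemar p = 2.8e-09). Over the GBR called in just one of the 2 lists, the odds of a siCHD9/siNS call were 0.112 times as high at members as at GBR called in both double depletions (exact conditional test over strength groups, interval 0.0657 to 0.185, p = 6.3e-23), a comparison added after the counts were seen. Against the 278 GBR lost in both double depletions, of which 7 were called in siCHD9/siNS only and 19 in siBRM/siNS only, the OR was 0.676 with an interval of 0.209 to 2.32.

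The members were called more often in both single depletion lists than the shared GBR lost in both double depletions. These were called in siCHD9/siNS in 2.52% (OR 3.61, interval 1.50 to 10.1, adjusted p = 0.0075) and in siBRM/siNS in 6.83% of cases (OR 3.27, interval 1.87 to 5.98, adjusted p = 3.2e-05, both by the exact conditional test). With one −log10 q cutoff for all lists, which left 55 GBR in that class, neither call held (adjusted p = 0.78 and 0.62 by the same exact test). A second class with the same calls in the double depletions were the 783 GBR that were blocked by Hic-5, that is not called in siNS/siNS, and lost after CHD9 depletion only. Of these 1.66% were called in siCHD9/siNS and 2.04% in siBRM/siNS, with OR of 5.88 and 13.8 for the members (adjusted p = 2.0e-08 and 3.5e-31, exact conditional test). The first of these was lost at the same cutoff (OR 3.17, adjusted p = 0.13, exact conditional test). The single depletions were made in cells that contained Hic-5, where the blocked GBR had no call in the control either. The members were selected to have that call. The difference from the blocked GBR was therefore largely set by the selection, and these tests do not measure an effect of the depletions.

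**Figure D3:**
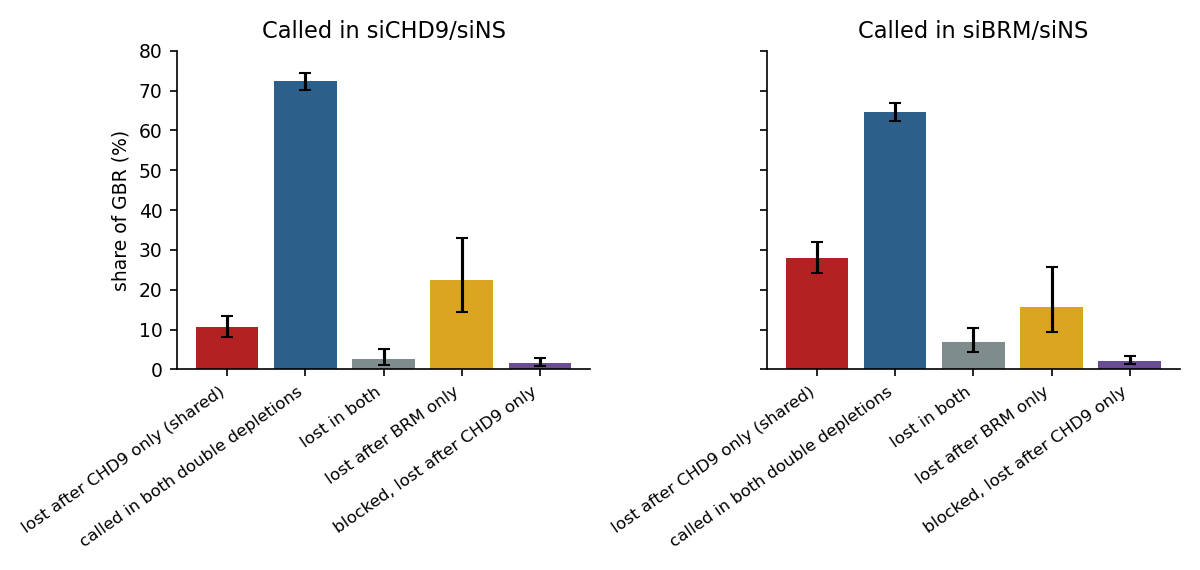
Bars give the percentage of GBR of 5 classes that were called in siCHD9/siNS (left) and siBRM/siNS (right), with 95% Wilson intervals that cover counting error only. The CHD9-lost shared GBR reached 10.6% and 27.9%, and the shared GBR called in both double depletions 72.3% and 64.6%.

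The GRE was the most frequent motif of the members. It was searched on both strands of 1-kb windows centered on the summit as a pattern of 15 bases (AGNACA or GGNACA, 3 free bases, TGTNCC or TGTNCT) with at most 1 mismatch. A match was present at 335 of the 520 members (64.4%), at 53.6% of all siHic5/siNS GBR and in 12.1% of windows 5 kb to either side of the members. The matches were close to the summit: 304 of the 335 nearest matches lay within 100 bp of it, with a median distance of 17 bp. Among the shared GBR called in both double depletions 70.0% held a GRE, and within strength groups the OR of 1.13 had an interval that included 1 (0.890 to 1.44, adjusted p = 0.57, exact conditional test). Without strength groups the OR was 0.776, on the other side of 1. The blocked GBR lost after CHD9 depletion only held a GRE less often than the members, in 49.6% (OR 1.72, interval 1.34 to 2.20, adjusted p = 5.7e-05 by the same exact test). With up to 2 mismatches allowed this call was lost (OR 1.50, interval 0.783 to 3.02, adjusted p = 0.44, exact conditional test).

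AP-1 sites were less frequent at the members than at the shared GBR called in both double depletions. The letters TGACTCA or TGAGTCA were present in the 1-kb window centered on the summit at 128 members (24.6%, interval 21.1 to 28.5). They were present at 676 (42.3%) of the shared GBR called in both double depletions (OR 0.417, interval 0.322 to 0.537, adjusted p = 2.4e-11 by the exact conditional test). The share over all siHic5/siNS GBR was 37.1%, and in windows 5 kb to either side it was 16.7% for the members and 17.0% for the other class. In windows of 200 bp the shares were 10.2% and 22.9% (OR 0.361). In the 8 strength groups of all shared GBR with at least 15 members, 19.8% to 29.3% of members and 36.9% to 50.7% of the GBR called in both double depletions held the letters. The nearest AP-1 match lay within 100 bp of the summit at 43.0% of the members that had one and at 55.0% of the GBR called in both double depletions that had one.

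The low AP-1 share was not a feature of every GBR lost after CHD9 depletion. The blocked GBR lost after CHD9 depletion only held the letters in 40.5%, more often than the members (OR for members 0.506, interval 0.387 to 0.660, adjusted p = 1.6e-06 by the exact conditional test). The shared GBR lost in both double depletions held them in 24.8%, and the OR of 1.07 against them had an interval of 0.721 to 1.58. In the 76 shared GBR lost after BRM depletion only, the share was 39.5% (interval 29.2 to 50.7), and no test was made on them. Among the members, the 128 with AP-1 letters were called in siCHD9/siNS in 12.5% and in siBRM/siNS in 21.9%, and the 392 without them in 9.95% and 29.8%. The intervals of these shares overlapped.

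**Figure D4:**
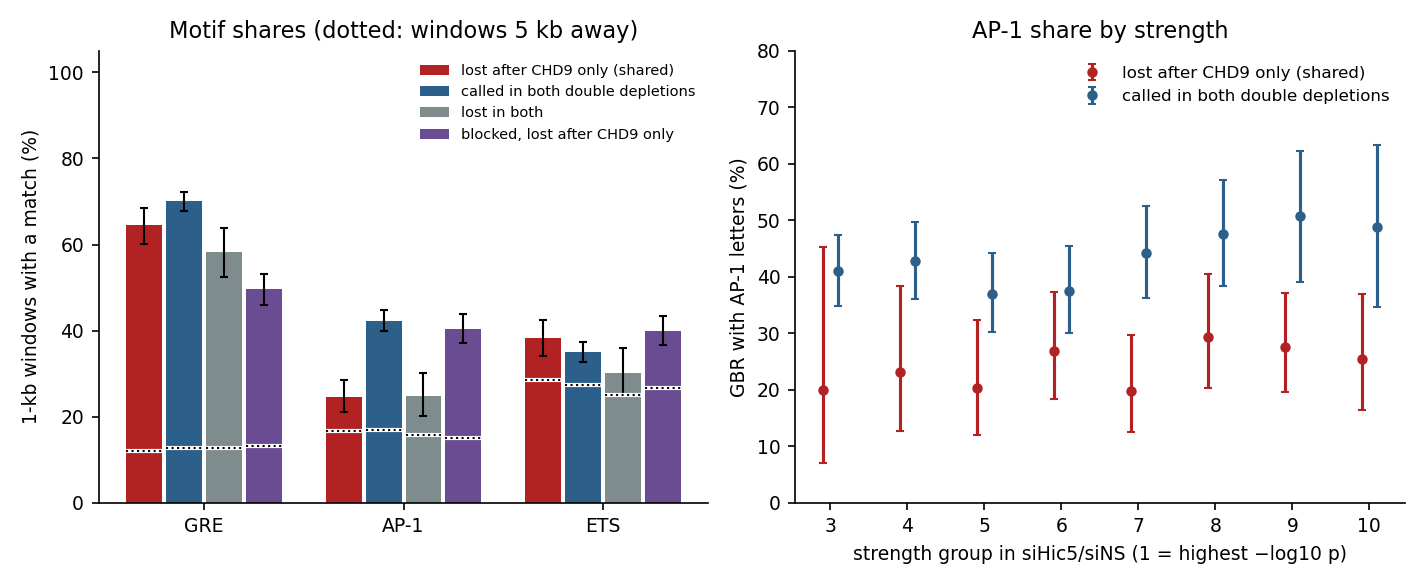
Left, the percentage of 1-kb windows with a GRE, AP-1 or ETS match in 4 classes of GBR, with 95% Wilson intervals and a dotted line for windows 5 kb to either side. Right, the AP-1 share in strength groups with at least 15 members, where the members sit between 19.8% and 29.3% and the shared GBR called in both double depletions between 36.9% and 50.7%.

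**Figure D5:**
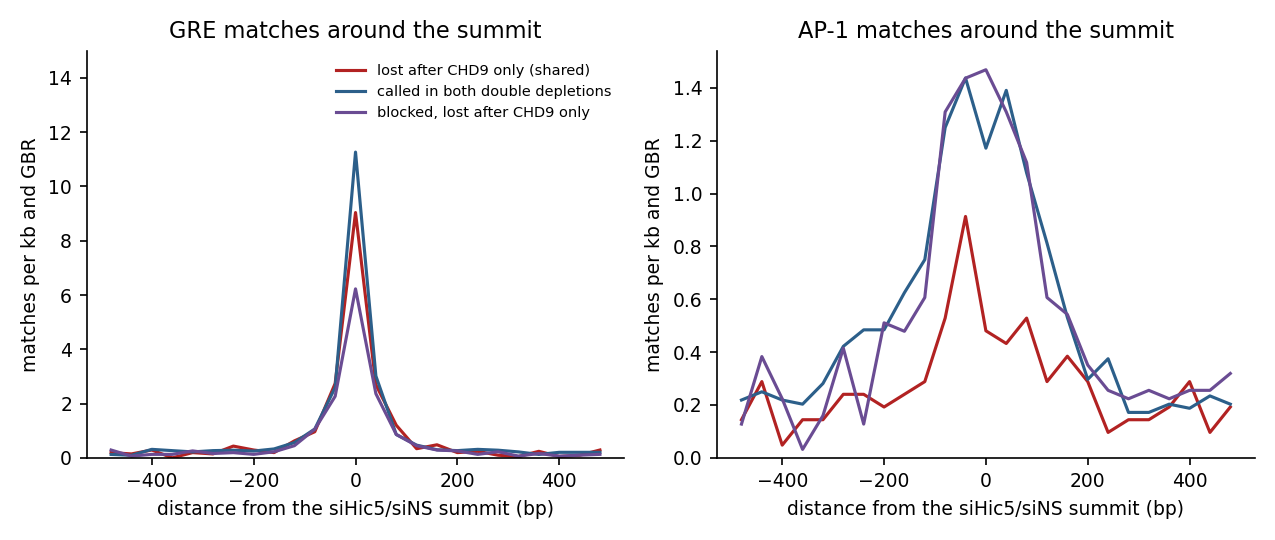
Matches per kb and GBR are plotted against the distance from the siHic5/siNS summit in bins of 40 bp for GRE (left) and AP-1 (right). In the central bin the members had 9.04 GRE and 0.481 AP-1 matches per kb, and the shared GBR called in both double depletions 11.3 and 1.17.

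The combination of GRE and AP-1 shows the same difference by count. A GRE without AP-1 or ETS letters was the commonest state of the members (158, 30.4%), as it was of the GBR called in both double depletions (27.4%). GRE and AP-1 without ETS were found at 44 members (8.46%) and at 18.9% of the other class. Of the members, 85 (16.3%) held none of the 3 motifs, against 10.1%.

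Against the shared GBR lost in both double depletions, none of the 9 motifs passed the threshold by the exact conditional test, and none had an unadjusted p under 0.05. The other motifs differed less from the GBR called in both double depletions. ETS letters (C, then A or C, GGAA, then A or G, then C or T) were present at 38.3% of the members, 34.9% of the GBR called in both double depletions and 37.9% of all siHic5/siNS GBR. The OR was 1.38 (interval 1.09 to 1.76, adjusted p = 0.032, exact conditional test), and it lost this call in 6 of 7 alternatives. For the C/EBP letters TTGCNNAA, the shares were 36.7%, 41.3% and 40.7%, with an OR of 0.738 (interval 0.583 to 0.934, adjusted p = 0.039, exact conditional test) that lost its call in 4 of 7 alternatives. RUNX (TGTGGTT), TEAD (GGAATGT), FOX (TGTTTAC), SP/KLF (GGGCGGG) and NFI (TGGC and GCCA, 5 bases apart) passed the threshold in none of the comparisons with the 3 classes. Over all GBR their shares were 21.0%, 22.7%, 14.4%, 15.2% and 3.77%, and at the members 21.2%, 24.6%, 16.2%, 17.1% and 4.23%. Against the blocked GBR lost after CHD9 depletion only, ETS letters were at 39.97% in 1 kb (OR 0.800, interval 0.623 to 1.03, adjusted p = 0.23), and in 200 bp at 10.4% of the members and 13.9% of the blocked GBR (OR 0.551, interval 0.372 to 0.807, adjusted p = 0.0076, both by the exact conditional test). GGAA is part of both the ETS and the TEAD letters.

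The members lay mostly away from promoters. By GENCODE release 44 their summit was in an intron of a protein-coding gene in 48.1% (all siHic5/siNS GBR 45.05%) and between protein-coding genes in 48.3% (51.1%). It was in a coding exon in 11 cases (2.12%, all GBR 1.43%) and in an untranslated region in 7 (1.35%, all GBR 2.38%). The nearest protein-coding TSS was within 1 kb of 21 members (4.04%, all GBR 4.54%) and within 10 kb of 99 (19.0%, all GBR 17.6%), and the median distance was 45.0 kb. None of the 12 tests of position (TSS within 1 kb or 10 kb, inside a gene, another GBR within 10 kb, each against 3 classes) passed the threshold after adjustment by the exact conditional test. The members were found on 23 chromosomes and on 1 alternate sequence, and 473 genes were nearest to one of them. Among the chromosomes, their share of the shared GBR was lowest on chromosome 4 (8 of 69, 11.6%) and highest on chromosome 18 (20 of 51, 39.2%), a difference that was not tested. A GBR that was called in siCHD9/siHic5 lay within 10 kb of 65 members and within 100 kb of 189. Another member lay within 100 kb of 84. Shares over all siHic5/siNS GBR were not computed for these distances, so the counts are a description only. Another GBR of any class lay within 10 kb of 33.7% of the members and 32.1% of all siHic5/siNS GBR. GPIHBP1 and CCDC167 were nearest to 3 members each, the largest number of any gene; they were singled out after their values were seen.

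The strongest members were intronic or intergenic sites with a GRE. Of the 10 with the highest −log10 p in siHic5/siNS, 9 held a GRE match and 1 the AP-1 letters. In the single depletions 5 of them were called in siBRM/siNS only, 1 in siCHD9/siNS only and 4 in neither. The strongest member lay 11.5 kb upstream of GPIHBP1, whose product holds lipoprotein lipase at the capillary wall. Its −log10 p was 137 in siHic5/siNS, 23.0 in siNS/siNS and 85.0 in siBRM/siHic5. It was called in neither single depletion list. A second GBR 4.63 kb upstream of the same gene had 95.5, 18.0 and 32.9 in these lists and 11.8 in siBRM/siNS.

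The GBR of ST3GAL5, the synthase of ganglioside GM3, lay 35.7 kb upstream of its TSS (chr2:85924323-85924977). Its −log10 p was 123 in siHic5/siNS, 26.1 in siNS/siNS, 43.5 in siBRM/siHic5 and 11.8 in siBRM/siNS. The GBR in an intron of CHST3, a chondroitin sulfotransferase, had 103, 39.6 and 48.0 in the first 3 of these lists and was called in neither single depletion. Among the 10, it had the highest value in siNS/siNS.

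MCF2L, a guanine nucleotide exchange factor, held a pair of strong members in its introns. The GBR 42.8 kb upstream of its annotated TSS (chr13:112925949-112926754) had a −log10 p of 93.9 in siHic5/siNS, 27.5 in siNS/siNS, 77.4 in siBRM/siHic5 and 38.5 in siBRM/siNS, the highest siBRM/siNS value of any member. Neither a GRE nor AP-1 or ETS letters were found there. The GBR 9.75 kb upstream of the TSS, with the GRE shown above, had 89.7, 14.3 and 23.4 in the first 3 lists and was called in neither single depletion. The GBR in SLC25A18, a mitochondrial glutamate carrier, was the one of the 10 called in siCHD9/siNS, with a −log10 p of 12.6 there against 91.6 in siHic5/siNS, 16.0 in siNS/siNS and 77.3 in siBRM/siHic5. The remaining 3 of the 10 were nearest to KLHL38, VPREB1 and FBRSL1, with −log10 p of 123, 95.2 and 88.4 in siHic5/siNS.

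The 5 weakest members, nearest to JCAD, KLF14, HNMT, OSBPL10 and PNPT1, had −log10 p of 12.8 to 15.3 in siHic5/siNS and no GRE or AP-1 match. The weakest (chr2:55779610-55780093), 86.0 kb upstream of PNPT1, had 12.8 in siHic5/siNS but 36.9 in siNS/siNS, 18.2 in siBRM/siHic5, 16.0 in siCHD9/siNS and 14.7 in siBRM/siNS. It was one of the 27 members called in both single depletion lists.

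The 5 members nearest to a TSS lay within 0.175 kb of NOL3, PLIN2, MAP3K6, SMIM44 and APOLD1. PLIN2 coats lipid droplets and NOL3 is an inhibitor of apoptosis. At NOL3 (chr16:67173773-67174365) the −log10 p was 47.4 in siHic5/siNS, 13.5 in siNS/siNS and 33.7 in siBRM/siHic5, and at PLIN2 (chr9:19127342-19127903) it was 41.2, 15.2 and 24.0. A GRE match was present at 4 of the 5, all but APOLD1, and none of the 5 was called in a single depletion list.

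Genes known to be induced by glucocorticoids were described from a list of 34. A member lay within 100 kb of the TSS of 6 of them (17.6%), a shared GBR called in both double depletions within 100 kb of 27 (79.4%) and any siHic5/siNS GBR within 100 kb of 30. Over 19701 protein-coding genes the corresponding shares were 4.39%, 12.1% and 43.6%. The 6 genes were FKBP5, ZBTB16, NFKBIA, MT2A, CEBPB and ERRFI1, with 7 members in all. Of these 7, 4 were called in siCHD9/siNS only, none in siBRM/siNS and 3 in neither list. A GRE match within the 1-kb window was present at 2 of the 7, those near FKBP5 and the farther one near CEBPB, and AP-1 letters at 3, those near NFKBIA, MT2A and the farther one near CEBPB.

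Upstream of FKBP5, a co-chaperone of GR, the member lay 89.7 kb from the TSS and 2.04 kb inside CLPSL2, with −log10 p of 37.5 in siHic5/siNS, 15.2 in siNS/siNS and 21.3 in siBRM/siHic5. It had no call in the single depletions. The GBR 90.5 kb into ZBTB16, a zinc finger transcription factor, had 50.03, 21.9 and 28.7 in the same lists and 14.8 in siCHD9/siNS.

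At NFKBIA, which encodes the NF-κB inhibitor IκBα, the member 13.8 kb downstream of the TSS had a −log10 p of 27.9 in siHic5/siNS, 41.2 in siNS/siNS, 23.4 in siBRM/siHic5 and 13.5 in siCHD9/siNS. CEBPB, a transcription factor of the C/EBP family, had members 88.3 and 52.4 kb downstream, with 60.3 and 32.7 in siHic5/siNS, of which the second was called in siCHD9/siNS at 14.6. The member 49.4 kb upstream of ERRFI1, an inhibitor of the EGF receptor, had 31.5 in siHic5/siNS and 11.7 in siCHD9/siNS. The member 61.2 kb upstream of MT2A, a metallothionein, had 63.4 in siHic5/siNS, 18.8 in siNS/siNS and 38.0 in siBRM/siHic5 and no call in the single depletions. It lay in an intron of BBS2, and the nearest protein-coding TSS was that of MT4, 17.7 kb away.

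In 4 other lists of genes, a member lay within 100 kb of 2 of 18 osteoblast genes (11.1%) and 1 of 18 focal adhesion genes (5.56%). The counts were none of 15 inflammatory genes and 2 of 21 AP-1 and ETS factor genes (9.52%), against 4.39% of all protein-coding genes. Any siHic5/siNS GBR lay as near to 72.2%, 83.3%, 53.3% and 81.0% of these 4 lists, against 43.6% of all protein-coding genes. The differences were not tested. For the osteoblast genes the strongest member was 8.95 kb upstream of COL1A1 (a chain of type I collagen), with a −log10 p of 36.0 in siHic5/siNS. For the focal adhesion genes the member was 52.1 kb upstream of ITGB1, the integrin β1 subunit, with 34.5. The member 88.0 kb from the ETS factor gene ELK1 had 47.4. The COL1A1 member had no call in the single depletions, that near ITGB1 was called in both, at 13.9 in siCHD9/siNS and 14.3 in siBRM/siNS, and that near ELK1 in siBRM/siNS at 13.5.

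At the edge of the selection, the smallest overlap of a member with a siNS/siNS peak was 265 bp (CACNA1C) and with a siBRM/siHic5 peak 284 bp (RANBP17). The smallest gap between a member and a siCHD9/siHic5 peak was 95 bp, at a GBR 64.7 kb upstream of UBE2E1. The shared GBR with the smallest overlap with a siCHD9/siHic5 peak (248 bp) was at F2RL1, and its peak there had a −log10 p of 12.1. Over the 1600 shared GBR called in both double depletions, the siCHD9/siHic5 peak had a −log10 p of 11.5 to 245 with a median of 26.8. With the same −log10 q cutoff of 14.2 for all lists, 479 GBR met the selection, of which 246 were among the 520. Of the 520, 249 had a siNS/siNS peak above that cutoff.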

How the data were processed

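GR ChIP-seq was analysed from 6 peak lists, 1 per siRNA combination. The authors mapped reads with BWA to GRCh38/hg38, called peaks with MACS2 on pooled replicates and kept those passing the IDR framework; tool versions were not given in the sources used here. The deposited lists hold a signal value, whose scale (fold enrichment or CPM) could not be settled, and the −log10 p and −log10 q that the authors obtained from MACS2. A −log10 p grows with depth, so it ranks peaks within a list and was not tested between lists. DiffBind results of the authors were not used to form the classes or in any test.

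The members and the gene lists were chosen with earlier results of these data known. Peaks overlapping by at least 1 bp were counted as called. Members were compared with 3 classes (shared GBR called in both double depletions, shared GBR lost in both, blocked GBR lost after CHD9 depletion only) on 15 features (calls in 2 lists, 9 motifs, 4 positions) by the exact conditional test of the common odds ratio over 10 groups of −log10 p in siHic5/siNS (R 4.3.3, mantelhaen.test), with Benjamini-Hochberg adjustment over the 45 tests and a threshold of 0.05. Calls in the single depletion lists were compared within a class by an exact McNemar test, which sets 1 pooled list against another and holds no replicate spread. These p-values treat GBR as independent, although 33.7% of members had another GBR within 10 kb. Wilson intervals cover counting error only. All peaks ended within the GRCh38 sequences; genes were protein-coding genes of GENCODE release 44, and coordinates count from 1. Sequences were read from GRCh38.

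Named GBR were the 10 strongest and 5 weakest members, the 5 nearest to a TSS, those within 100 kb of the TSS of a glucocorticoid-induced gene, the strongest within 100 kb of each other list's genes, and those at the edge of the selection. One further gene list and its named GBR are not reported here. Overlap counting, motif search and odds ratio estimation were tested on simulated data. Alternatives were other overlap rules, one q cutoff, lists of equal length, the 1000 strongest peaks, other strength groups, motif windows and mismatches, GC content as a covariate, all annotated genes and 5 kb as the TSS distance. Python 3.11 packages pandas 2.3.3, SciPy 1.17.1, statsmodels 0.14.6 and pysam 0.24.0 were used.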

Additional observations from a re-analysis of the deposited data

Results flagged for a closer look

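Among GBR called in just one of the 2 single depletion lists, the CHD9-lost shared GBR and the shared GBR called in both double depletions differed in which list that was. Members were called in siCHD9/siNS only in 28 and in siBRM/siNS only in 118 cases, and the other class in 275 and 152 cases, an OR of 0.112 within strength groups (exact conditional test, p = 6.3e-23) and of 0.132 without them. The shared GBR lost in both double depletions leaned the same way as the members, with 7 and 19 cases. Against them the OR was 0.676 (interval 0.209 to 2.32), so the order was not particular to the members. The contrast was chosen after the counts were seen, and the lists are single pooled lists.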

How the results depend on the processing

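The number of members was 511 to 520 with other overlap rules. These were an overlap of 50% of the shorter peak, summits within 200 bp, or no siCHD9/siHic5 peak within 1 kb of the summit. With one −log10 q cutoff for all lists the number was 479, of which 246 were among the 520. With double depletion lists of equal length it was 351. It was 86 with the 1000 strongest peaks of each list, of which 8 were among the 520. The ratio of members to shared GBR lost after BRM depletion only was 6.84 as reported, 59.9 with one q cutoff, 1.94 with lists of equal length and 3.44 with the 1000 strongest peaks. The one q cutoff, 14.2, was the lowest −log10 q of the siBRM/siHic5 list, which therefore lost no peak. The siCHD9/siHic5 list reached down to 7.74. Of the GBR called in both double depletions, 1217 passed the cutoff in siHic5/siNS, siNS/siNS and siBRM/siHic5. Among these, 234 had a siCHD9/siHic5 peak below it. The cause of the other changes in the ratio was not tested.

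The OR of a siCHD9/siNS call and of a siBRM/siNS call against shared GBR called in both double depletions stayed below 1 and past the threshold in all 5 alternatives, at 0.039 to 0.095 and 0.212 to 0.633, as did that of AP-1 in all 7, at 0.361 to 0.446. With one q cutoff, 5 calls of the exact conditional test were lost, 3 of them on single depletion lists: siBRM/siNS against GBR lost in both (OR 2.17, adjusted p = 0.62, where 55 GBR were left in that class), siCHD9/siNS against the same class (called at 13 of 479 members and 0 of 55, no finite OR, adjusted p = 0.78) and siCHD9/siNS against blocked GBR (OR 3.17, adjusted p = 0.13). The others were ETS and C/EBP against GBR called in both double depletions (OR 1.07 and 0.925). The ratio of members called in siCHD9/siNS only to those called in siBRM/siNS only was 0.237 and stayed at 0.12 to 0.261 in 3 alternatives, past the threshold in each.

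Of 27 motif tests, 5 passed the threshold, against 3 without strength groups, 3 with one q cutoff and 3 with GC content and strength rank as covariates. ETS against blocked GBR passed it in windows of 200 bp (OR 0.551, adjusted p = 0.0076, exact conditional test) and not in those of 1 kb (OR 0.800). Of 12 position tests, 0 passed (exact conditional test with Benjamini-Hochberg adjustment), and 1 passed without strength groups. OR that changed side were GRE against GBR called in both double depletions (0.776 without strength groups), and against GBR lost in both GRE with up to 2 mismatches (0.696), AP-1 without strength groups (0.989) or with groups by siNS/siNS −log10 p (0.999) and ETS in 200 bp (0.939); none of these passed the threshold.

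No paired analysis was possible because each list pools the replicates, and no replicate was left out for the same reason. Whether a weak site is listed depends on the cutoff and the depth behind each list, and read depth was not used here, so a missing peak does not show that GR was absent.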
